A study of Mus musculus with 36 samples.

Results

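The 8 genes described here were grouped around the programme by which liver X receptors (LXRs) move cholesterol out of macrophages. Not all of them serve efflux. The members are Nr1h3 and Nr1h2, which encode LXRα and LXRβ, the efflux genes Abca1, Abcg1 and Apoe, and Mylip, Soat1 and Lpcat3. They were taken by gene name from a count table of 54532 genes, and all 8 were found and tested in every comparison. LXRs are nuclear receptors that bind DNA as partners of retinoid X receptors and are switched on by oxysterols and by the sterol intermediate desmosterol. In macrophages they are known for raising the cholesterol exporters when sterol accumulates, and for crosstalk with inflammatory signalling from Toll-like receptors.

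RNA was sequenced from bone-marrow-derived macrophages of female C57BL/6 mice, grown for 7 days in macrophage colony-stimulating factor. All mice carried Bmal1 flox/flox alleles. The controls (WT) were littermates without Cre, and the knockouts (KO) carried LysM-Cre, which is driven by the myeloid gene Lyz2 and deletes the clock transcription factor BMAL1 in myeloid cells. Cells of each genotype received, for 6 h, DMSO vehicle, 100 µM of the BMAL1-binding compound Core Circadian Modulator (CCM), 100 nM of the bacterial endotoxin lipopolysaccharide (LPS), or LPS with CCM, which gave 8 groups of 3 WT or 6 KO libraries each, 36 in all. The labels do not say that replicates came from separate mice, so p-values measure the spread between these libraries, which may be technical.

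Libraries held 13469262 to 28288923 counts. All 8 macrophage markers were detected in these cultures, with a summed level of 11546 to 23219 CPM (counts scaled by library size and TMM factors), against 425 to 1163 CPM for 9 neutrophil markers, 302 to 1660 CPM for 5 fibroblast markers, and at most 11.1 CPM for the summed B cell, T cell, erythroid or dendritic cell markers. The 4 libraries of KO replicate 6 stood apart in every treatment. Their root mean square deviation from the group median was 0.880 to 1.28 log2 units against at most 0.485 in the other 32 libraries, and their mitochondrial share was 0.254% to 0.449% of counts against 0.754% to 1.57%. The count of Arntl, which encodes BMAL1, includes reads outside the floxed part and so does not itself check the deletion. It was 7.52 to 12.9 CPM in WT, 4.52 to 8.29 CPM in KO replicates 1, 3, 4 and 5, 2.02 to 4.80 CPM in KO replicate 6, and 7.76 to 10.8 CPM in the libraries labelled KO replicate 2, within the WT range. Lyz2, the gene whose locus carries the Cre, was at 10457 to 15185 CPM in WT, 5862 to 10177 CPM in KO replicates 1, 3, 4 and 5, 7882 to 9461 CPM in replicate 6, and 11052 to 14686 CPM in the libraries labelled KO replicate 2, again within the WT range. Lyz2 thus goes against the label of replicate 2. The Arntl range of replicate 2 lay within that of WT but also overlapped that of KO replicates 1, 3, 4 and 5. Replicate 2 stays in the KO fits unless stated. KO results are given with and without replicate 6, and those of the 8 genes without replicates 2 and 6 where that changes a call.

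The regulatory DNA of 2 members is shown because LXR and BMAL1 each have a textbook recognition sequence. LXR with its partner favours direct repeats of AGGTCA, both copies in the same direction with any 4 bases between them, and BMAL1 with CLOCK binds the E-box CACGTG. RefSeq windows on GRCm38.p6 running from 250 bases before to 50 after a gene start were searched on both strands, and 7 members had a window, 10 in all. The E-box lay in 7.15% of all 32851 windows and, among the members, in that of Abca1 alone, from 147 to 142 bases before the start. No member window held an exact AGGTCA, which occurred in 16.3% of all windows. The spaced repeat with at most 3 mismatches occurred in 21.9% of windows and, among members, again in Abca1 alone, from 67 to 52 bases before the start and read on the opposite strand. That limit was set after at most 2 mismatches, met by 3.02% of windows, gave no member. These matches overlap no other searched motif. The 250 bases before the starts of Abca1 (chr4:53159896-53160145, minus strand) and Mylip (chr13:45389492-45389741, plus strand) are printed 5′ to 3′ on the gene's own strand, with the E-box and the imperfect repeat in capitals in Abca1 and no match in Mylip.
Abca1: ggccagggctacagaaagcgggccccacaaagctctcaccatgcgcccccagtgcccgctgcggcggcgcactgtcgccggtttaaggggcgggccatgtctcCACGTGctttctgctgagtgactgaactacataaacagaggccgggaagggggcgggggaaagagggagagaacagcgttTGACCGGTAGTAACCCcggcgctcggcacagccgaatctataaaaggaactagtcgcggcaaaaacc
Mylip: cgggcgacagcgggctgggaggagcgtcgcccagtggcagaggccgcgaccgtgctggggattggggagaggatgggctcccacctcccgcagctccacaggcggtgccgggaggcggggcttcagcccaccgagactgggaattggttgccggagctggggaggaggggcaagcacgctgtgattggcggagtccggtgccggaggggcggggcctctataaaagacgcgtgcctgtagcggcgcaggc

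The genes lie on 7 chromosomes of mm10 and are all protein coding. Abca1 spans chr4:53030787-53159895 and Abcg1 spans chr17:31057698-31115777. Nr1h3 is at chr2:91184061-91202834, Nr1h2 at chr7:44549616-44553951 and Apoe at chr7:19696109-19699188. Mylip is at chr13:45389742-45412022, Soat1 at chr1:156424525-156474331 and Lpcat3 at chr6:124663027-124704418. Lpcat3 shares 334 exonic bases, 10.2% of its exon length, with Emg1 on the opposite strand, and Nr1h3 shares 34 exonic bases with Gm13783 on its own strand. The strand setting of the counting was not given in the sources used here, so reads in the shared Lpcat3 and Emg1 bases may belong to either gene.

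At rest the members covered a wide range of levels. In WT vehicle cells, per kilobase of exon, Apoe, a secreted lipoprotein component that accepts cholesterol, stood at 8521 ± 1358 CPM per kb (SD, n = 3). Soat1, which esterifies cholesterol for storage, followed at 45.7 ± 1.70 CPM per kb, then Nr1h2 at 29.3 ± 3.39, Abcg1 at 24.9 ± 1.20 and Nr1h3 at 23.4 ± 0.654 CPM per kb. Lpcat3, an enzyme that loads polyunsaturated chains into phospholipids, was at 12.7 ± 0.740 CPM per kb, Abca1 at 12.1 ± 2.33 and Mylip at 9.90 ± 0.612 CPM per kb. Lpcat3 and Abca1 differed by less than the SD of either. Abca1 and Mylip differed by less than the SD of Abca1 but by more than that of Mylip. Soat1 and Apoe each lay beyond the SDs of their neighbours in this order.

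**Figure D1:**
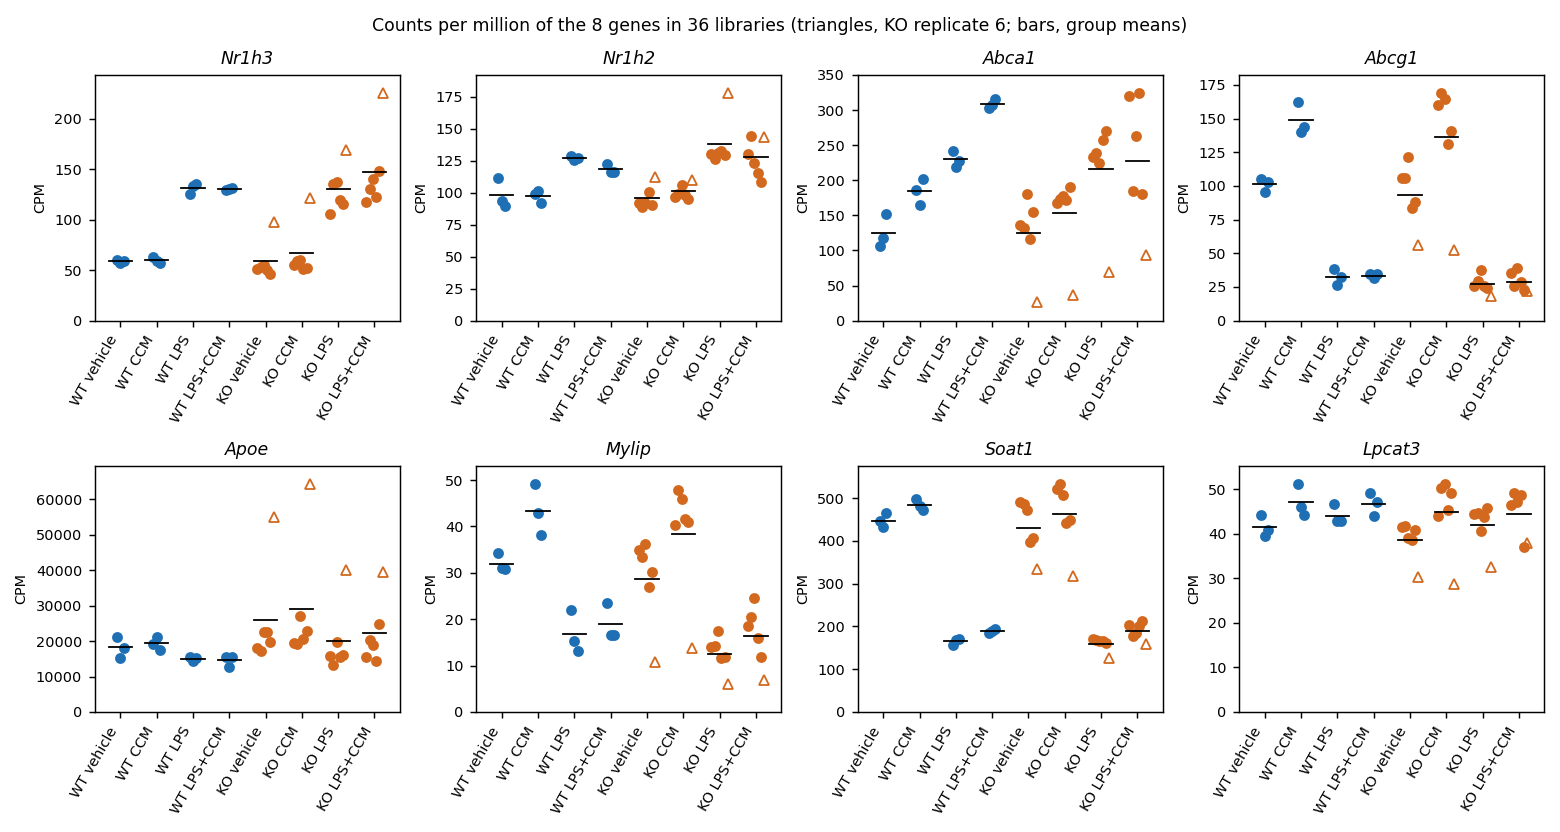
Level of each of the 8 genes in CPM on a linear axis from 0, by group, with 1 point per library, blue for WT and orange for KO, open triangles for KO replicate 6 and a bar for the group mean. In WT, Abca1 rises through the 4 groups from a mean of 125 to 308 CPM, Abcg1, Mylip and Soat1 are low in both LPS groups, and KO replicate 6 lies apart in most KO groups.

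LPS split the members in WT macrophages. Both receptors and Abca1 rose, while Abcg1, Mylip and Soat1 fell, so that 6 of the 8 members passed the test, 3 in each direction. Across all 14501 genes tested the share that passed was 63.0%, 30.6% higher and 32.4% lower, so a count of 6 of 8 is near what the whole transcriptome gave. The groups did not overlap for 6 of the 8 members, against 69.0% of all genes. The median log2 fold change was −0.07 over the members and −0.053 over all genes. All tests are edgeR quasi-likelihood tests with Benjamini-Hochberg adjustment over every gene tested, called at an adjusted p of at most 0.05, and fold changes are on the log2 scale.

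Nr1h3, the receptor gene that is itself an LXR target in some cells, was at 57.3, 58.8 and 60.6 CPM in the WT vehicle libraries and at 126, 133 and 135 CPM under LPS. The groups did not overlap, and the difference was 1.19 ± 0.0565 log2 units (SE, n = 3 per group, edgeR adjusted p = 4.02e-08). Nr1h2 was at 89.9, 93.9 and 111 CPM in vehicle and 126, 127 and 129 CPM under LPS, again without overlap, a difference of 0.40 ± 0.0735 (edgeR adjusted p = 8.55e-04). The call on Nr1h2 rests on the scaling. With total counts alone, which moved the median of all genes to −0.465, its difference was −0.01 with an edgeR adjusted p of 0.901.

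The ABC transporters, which pass cholesterol to lipid-poor apolipoprotein (Abca1) and to high-density lipoprotein (Abcg1), went opposite ways. Abca1 was at 106, 117 and 152 CPM in vehicle and 220, 228 and 242 CPM under LPS, a difference of 0.90 ± 0.122 (edgeR adjusted p = 1.06e-04). Abcg1 was at 95.8, 103 and 105 CPM in vehicle and 26.4, 32.2 and 38.2 CPM under LPS, a difference of −1.63 ± 0.114 (edgeR adjusted p = 8.10e-07). With total counts alone the differences were 0.49 for Abca1 and −2.04 for Abcg1, and both were still called. Neither gene's groups overlapped, and every LPS library was above every vehicle library for Abca1 and below for Abcg1.

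Apoe, at 15369 to 21174 CPM in vehicle and 14283 to 15500.3 CPM under LPS, overlapped between the groups, with a difference of −0.25 ± 0.101 (edgeR adjusted p = 0.0562). With total counts alone the Apoe difference was −0.66 (edgeR adjusted p = 1.02e-04), so its call depends on the scaling. Mylip, which encodes an E3 ubiquitin ligase that limits lipoprotein uptake, was at 30.7, 31.0 and 34.3 CPM in vehicle and at 13.1, 15.3 and 22.0 CPM under LPS, a difference of −0.91 ± 0.156 (edgeR adjusted p = 5.31e-04). Soat1 was at 432, 446 and 465 CPM in vehicle and at 158, 167 and 171 CPM under LPS, a difference of −1.41 ± 0.0586 (edgeR adjusted p = 1.41e-08). The Mylip and Soat1 groups did not overlap. Lpcat3, at 39.5 to 44.2 CPM in vehicle and 42.7 to 46.6 CPM under LPS, overlapped and differed by 0.11 ± 0.0665 (edgeR adjusted p = 0.166). With total counts alone it was −0.30 (edgeR adjusted p = 0.00216), so no direction is given for Lpcat3. In these 6 libraries the summed neutrophil markers were at 666 to 730 CPM in vehicle and 516 to 562 CPM under LPS, and the summed B cell markers at 3.39 to 4.37 and 2.17 to 3.31 CPM. Their part in the member values was not tested, and in bulk RNA fewer cells of a type and less RNA per cell cannot be told apart.

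In KO macrophages 5 of the 8 members passed, 2 higher and 3 lower, against 47.1% of all 13648 genes tested, 22.4% higher and 24.7% lower. The groups did not overlap for 4 members, against 30.6% of all genes. Nr1h3 rose by 1.15 ± 0.210 and Nr1h2 by 0.53 ± 0.128, and Abcg1 fell with −1.80 ± 0.188, Mylip with −1.20 ± 0.274 and Soat1 with −1.43 ± 0.107. The edgeR adjusted p-values of these 5 genes ran from 1.45e-07 to 0.00367, and with total counts alone that of Nr1h2 was 0.166 at 0.14. That scaling called Apoe lower, at −0.72 (edgeR adjusted p = 0.04955). Abca1 ran from 27.1 through a median of 134 to 181 CPM in KO vehicle and from 69.3 through 236 to 270 CPM in KO LPS, with KO replicate 6 lowest in both groups, and its difference was 0.79 ± 0.376 (edgeR adjusted p = 0.105). Without replicate 6 the ranges were 116 to 181 and 225 to 270 CPM and no longer overlapped.

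Without replicate 6, 7 members passed, against 69.4% of all genes. Abca1 differed by 0.76 ± 0.108 (edgeR adjusted p = 2.73e-05) and Apoe, at 17103 to 22685 CPM in vehicle and 13360 to 19857 CPM under LPS, by −0.31 ± 0.111 (edgeR adjusted p = 0.0221). Lpcat3 stood at 0.12 ± 0.0517 (edgeR adjusted p = 0.0592). The replicate numbers were taken to pair these samples, which the labels do not state. A fit blocked on that number, all 6 KO replicates included, changed this count to 7 members against 71.6% of all genes. Abca1 was then at 0.86 ± 0.106 (edgeR adjusted p = 6.92e-06) and Apoe at −0.34 ± 0.0482 (edgeR adjusted p = 3.04e-05). In the same pairs Abca1 was higher under LPS in 6 of 6 and Abcg1 lower in 6 of 6. Without KO replicates 2 and 6, all 8 members passed, Lpcat3 at 0.16 ± 0.0609 (edgeR adjusted p = 0.0364). The share of all genes that passed in that fit is not given here. With replicate 6 alone left out it was 69.4%, so the 8 are not read as a result about the members.

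**Figure D2:**
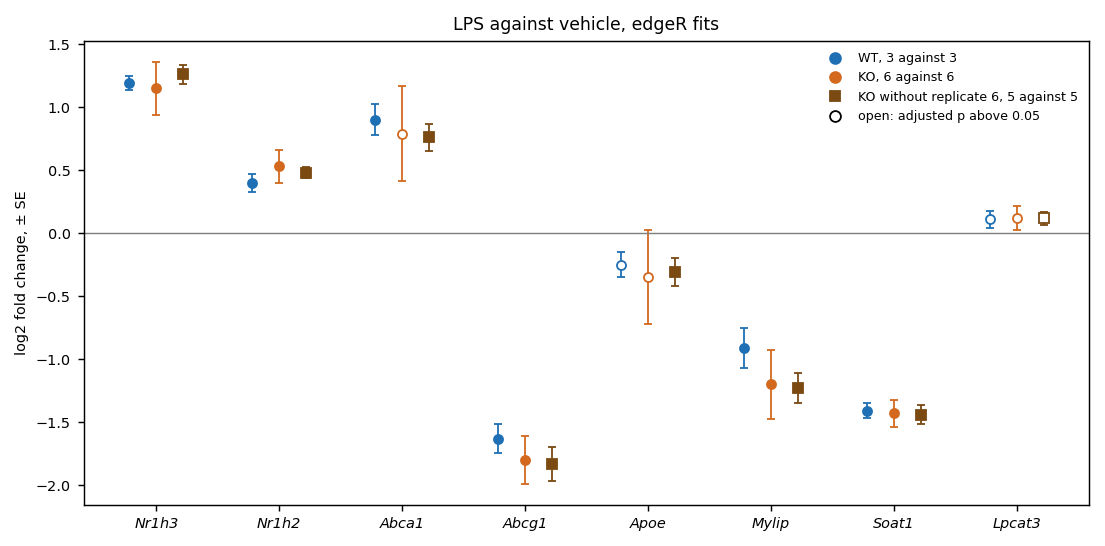
Log2 fold change of LPS against vehicle with its SE (edgeR) for each gene, in WT (blue, 3 against 3), KO (orange, 6 against 6) and KO without replicate 6 (brown squares, 5 against 5). Filled symbols have an adjusted p of at most 0.05, and Nr1h3, Nr1h2 and Abca1 lie above 0 while Abcg1, Mylip and Soat1 lie below it in all 3 fits.

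The genes around the receptors are counted here for LPS in WT cells against the 63.0% called among all genes. Of the other LXR target genes, 7 of 10 tested passed, a share near that of all genes, and all 7 fell, with Arl4c at −2.51, the desaturase gene Scd2 at −2.05, its relative Scd1 at −0.68 and the fatty acid synthase gene Fasn at −0.49. Of the LXR partners and coregulators, 7 of 10 passed, likewise near that share, and 6 of these fell, among them the partner genes Rxra at −1.27 and Rxrb at −0.76 and the corepressor component Tbl1xr1 at −0.74, while the Mediator gene Med1 rose by 0.79. All 5 tested genes of oxysterol and desmosterol handling passed, and DESeq2 called 4. Ch25h, which makes 25-hydroxycholesterol, rose by 5.68 ± 0.183, and Cyp7b1, which breaks such oxysterols down, rose by 3.08, whereas Cyp27a1, which makes 27-hydroxycholesterol, was at −2.42 and the oxysterol sulfotransferase gene Sult2b1 at −1.73. Some of these genes were near the floor. Sult2b1 had a mean of 0.474 CPM in WT vehicle and 0.139 CPM under LPS. The means of Cyp7b1 were 0.182 and 1.62 CPM, and those of Ch25h 0.556 and 29.1 CPM.

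All 10 tested genes of cholesterol uptake, hydrolysis and efflux passed, 3 higher and 7 lower. The scavenger receptor gene Msr1 rose by 1.88, and the ester hydrolase gene Nceh1 was at −2.76, the lysosomal lipase gene Lipa at −1.28 and the receptor gene Lrp1 at −1.26. Of the SREBP2 targets, which serve cholesterol synthesis and uptake, 11 of 12 passed and 10 rose, with Fdft1 at 0.91 and Dhcr7 at −2.22. All 10 paralogs of the members passed, 3 higher and 7 lower, with Abcg3 at −4.74, Abca9 at −2.17, Lpcat2 at 1.91 and Abca2 at −1.30. The list medians were −0.37 for the other LXR targets, −0.29 for the partners, 0.23 for oxysterol handling, −0.71 for uptake and hydrolysis, 0.50 for the SREBP2 targets and −0.77 for the paralogs, beside −0.053 for all genes.

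In KO cells, where 47.1% of all genes passed, the same lists gave 5 of 10 other LXR targets lower and none higher, 5 of 10 partners passing with 4 lower, and 4 of 4 oxysterol genes passing with 3 higher. They gave 7 of 10 uptake and hydrolysis genes passing with 5 lower, 10 of 12 SREBP2 targets passing with 9 higher, and 9 of 10 paralogs passing with 7 lower. Arl4c was at −2.63, Rxra at −1.51, Ch25h at 5.30, Nceh1 at −2.85, Dhcr7 at −2.30 and Abcg3 at −5.12 in this comparison. Without KO replicate 6, where 69.4% of all genes passed, the counts were 7 of 10 other LXR targets, all lower, 7 of 10 partners with 6 lower and 10 of 10 uptake and hydrolysis genes with 7 lower. They were then 11 of 12 SREBP2 targets with 10 higher, 10 of 10 paralogs with 7 lower, and 4 of 4 oxysterol genes with 3 higher.

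CCM given without LPS asked whether the BMAL1 ligand moves the members in resting cells. In WT cells all 8 members had a positive log2 fold change, with a median of 0.16 beside −0.009 for all genes, but 1 of 8 passed the test, where 0.0570% of all 14024 genes did and 0.0499% did with a higher level. DESeq2 called 2, Abcg1 and Mylip, against 2.41% of the genes it tested. The gene called by edgeR was Abcg1, at 95.8, 103 and 105 CPM in vehicle and 140, 144 and 162 CPM with CCM, without overlap, a difference of 0.56 ± 0.0677 (edgeR adjusted p = 0.0350). The Abcg1 call was kept without WT vehicle replicate 3 and lost without any other single library, with adjusted p-values of 0.0920 to 0.246.

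Abca1 and Mylip had differences of similar size that did not pass in the edgeR fit. DESeq2 called Mylip (DESeq2 adjusted p = 0.00204) but not Abca1 (DESeq2 adjusted p = 0.0983). Abca1 was at 106, 117 and 152 CPM in vehicle and 165, 186 and 202 CPM with CCM, a difference of 0.57 ± 0.134 (edgeR adjusted p = 0.186), and passed without WT vehicle replicate 3 (0.74, edgeR adjusted p = 0.0435). Mylip was at 30.7, 31.0 and 34.3 CPM in vehicle and 38.3, 42.9 and 49.1 CPM with CCM, a difference of 0.45 ± 0.0879 (edgeR adjusted p = 0.121). Neither gene's groups overlapped, and nor did those of Soat1, at 432 to 465 and 473 to 497 CPM, so 4 of 8 members had groups apart against 15.4% of all genes. Soat1 differed by 0.12 ± 0.0521 and Lpcat3, at 39.5 to 44.2 and 44.2 to 51.1 CPM, by 0.19 ± 0.0689 (edgeR adjusted p = 0.489 and 0.408). Apoe differed by 0.10 ± 0.102, Nr1h3 by 0.03 ± 0.0595 and Nr1h2 by 0.0016 ± 0.0762, so the 95% interval for the receptors reached no further than 0.17 in either direction. The summed neutrophil and fibroblast markers of the groups overlapped. The summed dendritic cell markers did not, at 2.999 to 5.43 CPM in vehicle and 2.12 to 2.62 CPM with CCM, and their part in the member values was not tested.

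In unstimulated KO cells CCM gave 0 calls among the members and 0% over all 13799 genes by edgeR. At an unadjusted p under 0.05 edgeR gave 1 member, against 2.41% of all genes, and DESeq2 called 0, against 0.146%. The groups overlapped for all 8 members, against 0.420% of genes without overlap. Abcg1 ran from 56.3 through a median of 97.0 to 121 CPM in KO vehicle and from 52.8 through 151 to 169 CPM with CCM, with replicate 6 lowest in both, a difference of 0.53 ± 0.240 (edgeR adjusted p = 0.9999). Mylip ran from 10.7 through 31.8 to 36.2 CPM and from 13.7 through 41.3 to 47.9 CPM, a difference of 0.41 ± 0.297. Abca1 differed by 0.28 ± 0.410, Lpcat3 by 0.20 ± 0.122, Nr1h3 by 0.19 ± 0.275, Apoe by 0.17 ± 0.401, Soat1 by 0.09 ± 0.124 and Nr1h2 by 0.07 ± 0.0986.

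Without KO replicate 6 the Abcg1 ranges were 83.9 to 121 and 131 to 169 CPM, and those of Mylip 27.0 to 36.2 and 40.3 to 47.9 CPM, and neither overlapped. Then 3 members passed, against 1.01% of all genes. They were Abcg1 at 0.58 ± 0.1001 (edgeR adjusted p = 0.0204), Mylip at 0.41 ± 0.0801 (edgeR adjusted p = 0.0379) and Lpcat3 at 0.23. In a fit blocked on the replicate number, which was taken to pair the samples here, 3 members passed against 3.11% of all genes. They were Abca1 at 0.31 ± 0.0729 (edgeR adjusted p = 0.0412), Abcg1 at 0.50 ± 0.0814 (edgeR adjusted p = 0.00779) and Mylip at 0.41 ± 0.0629 (edgeR adjusted p = 0.00555). The block without replicate 6 gave 4, these and Lpcat3, against 5.24% of all genes. Without KO replicates 2 and 6 no member passed by edgeR, with Abcg1 at 0.56 ± 0.117 (edgeR adjusted p = 0.123) and Mylip at 0.38 ± 0.0919. The share of all genes in that fit is not given here, and 1.01% passed with replicate 6 alone left out. Whether the resting effect of CCM differed between genotypes was not tested.

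Of the other lists, resting CCM gave calls in WT cells, where 0.0570% of all genes passed, only for Sqle. This squalene epoxidase gene was at −0.47 ± 0.0610 (edgeR adjusted p = 0.0466). Of the SREBP2 targets 0 of 12 had a positive value, with a median of −0.24. The other LXR targets had a median of 0.07 with 6 of 10 positive, the partners 0.05 with 10 of 10 positive, oxysterol handling −0.15, uptake and hydrolysis 0.11, and the paralogs −0.08. In unstimulated KO cells none of these lists held a call by edgeR with all 6 replicates, and the SREBP2 targets again had 0 of 12 positive values, with a median of −0.27. Without KO replicate 6, where 1.01% of all genes passed, 5 of 12 SREBP2 targets were called lower, Sqle among them, and 1 of 3 oxysterol genes was. With the replicate block, which called 3.11% of all genes, 7 of 12 SREBP2 targets were called, all lower, as were 3 of 10 uptake and hydrolysis genes and 1 gene in each of the other 4 lists.

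**Figure D3:**
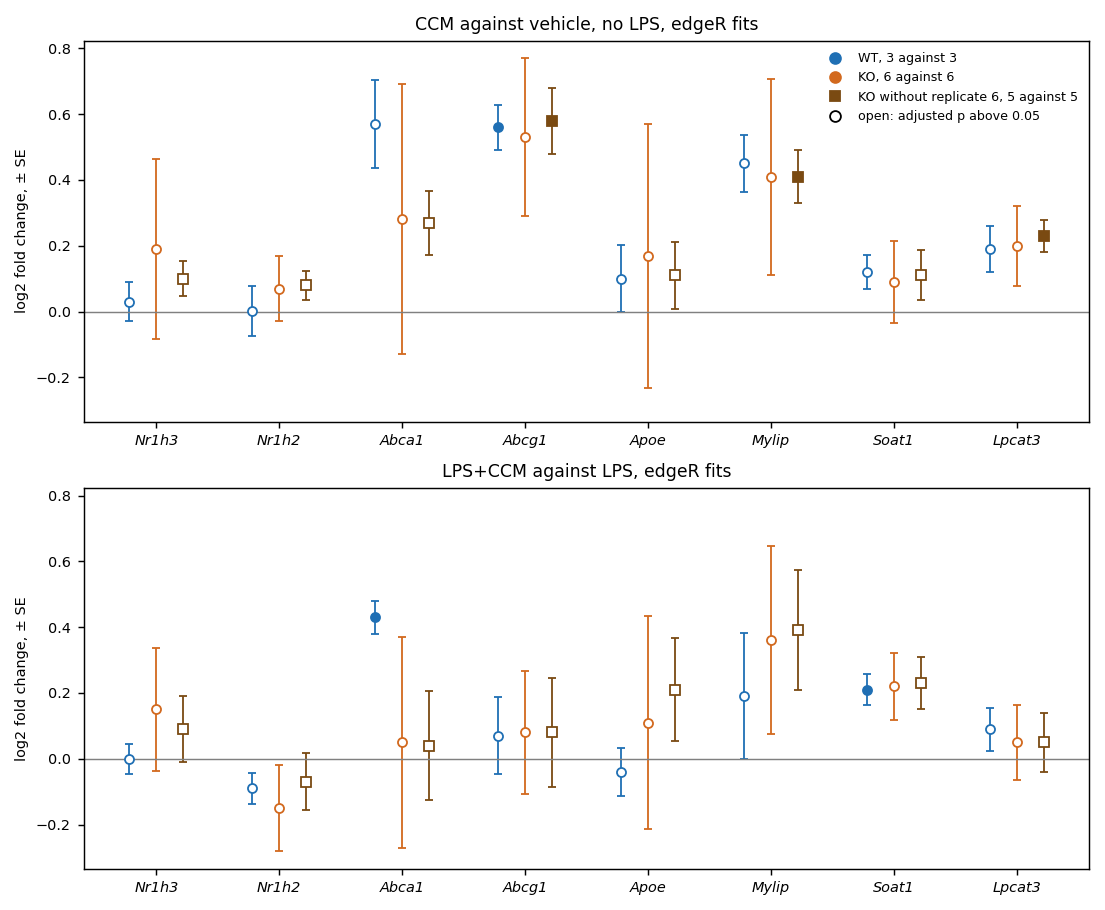
Log2 fold change with its SE (edgeR) of CCM against vehicle (top) and of LPS with CCM against LPS (bottom), in WT (blue), KO (orange) and KO without replicate 6 (brown squares), filled where the adjusted p is at most 0.05. At rest Abca1, Abcg1 and Mylip lie between 0.27 and 0.58 in all 3 fits, and under LPS the filled symbols are those of Abca1 and Soat1 in WT.

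Under LPS, CCM raised 2 of the 8 members in WT cells, against 11.9% of all 13579 genes tested and 4.15% called higher, with a median over the members of 0.08 beside 0.014 over all genes. Abca1 was at 220, 228 and 242 CPM with LPS and 302, 307 and 315 CPM with LPS and CCM, without overlap, a difference of 0.43 ± 0.0494 (edgeR adjusted p = 3.37e-04). Soat1 was at 158, 167 and 171 CPM with LPS and 186, 189 and 195 CPM with both, without overlap, a difference of 0.21 ± 0.0463 (edgeR adjusted p = 0.0164). The level of Soat1 with both agents stayed below that in vehicle cells, which was at least 432 CPM. Abca1 passed without any single library, whereas Soat1 missed the threshold without WT LPS replicate 2 or WT LPS+CCM replicate 2 or 3, with adjusted p-values of 0.0581 to 0.0607.

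The other members did not pass in that comparison, and with Nr1h2 the groups were apart for 3 of 8, against 30.1% of all genes. Mylip, at 13.1 to 22.0 and 16.6 to 23.5 CPM, differed by 0.19 ± 0.191, Lpcat3 by 0.09 ± 0.0654, Abcg1, at 26.4 to 38.2 and 31.3 to 34.6 CPM, by 0.07 ± 0.117 and Apoe by −0.04 ± 0.0729. Nr1h3 differed by −0.0013 ± 0.0461 and Nr1h2, at 126 to 129 and 116 to 122 CPM, by −0.09 ± 0.0467 (edgeR adjusted p = 0.239). The summed dendritic cell markers were at 5.07 to 5.34 CPM with LPS and 2.57 to 3.13 CPM with both, and their part in the member values was not tested. The numbers were taken to pair these samples too, and the block, which called 23.7% of all genes, called Abca1 and Soat1 and no other member.

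In KO cells under LPS, CCM gave 0 calls among the members by edgeR, against 0.112% of all 13386 genes, with 1 member at an unadjusted p under 0.05, against 7.99%, and 0 by DESeq2, against 1.28%. The groups overlapped for all 8 members, against 1.37% of genes without overlap. Abca1 ran from 69.3 through a median of 236 to 270 CPM with LPS and from 93.8 through 224 to 325 CPM with both, a difference of 0.05 ± 0.3203. The libraries labelled KO LPS+CCM replicates 2 and 5 were at 185 and 180 CPM, below all KO LPS libraries but that of replicate 6, and replicates 1, 3 and 4 were at 319.7, 263 and 325 CPM. KO LPS+CCM replicate 5 had a root mean square deviation of 0.485 log2 units, against at most 0.347 in the other libraries outside KO replicate 6. Its mitochondrial share was 0.754%, against at least 0.891% in those libraries, and its part in the Abca1 difference was not tested. Soat1 ran from 126 through 165 to 172 CPM and from 158 through 193 to 214 CPM, a difference of 0.22 ± 0.103, and Mylip from 5.99 through 12.9 to 17.4 CPM and from 6.96 through 17.2 to 24.7 CPM, a difference of 0.36 ± 0.285.

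Nr1h3 differed by 0.15 ± 0.187, Nr1h2 by −0.15 ± 0.132, Apoe by 0.11 ± 0.323, Abcg1 by 0.08 ± 0.186 and Lpcat3 by 0.05 ± 0.114. Without KO replicate 6 no member passed either, against 1.27% of all genes, with Abca1 at 0.04 ± 0.165, Soat1 at 0.23 ± 0.0783, Apoe at 0.21 ± 0.157, Nr1h3 at 0.09 ± 0.101 and Nr1h2 at −0.07 ± 0.0870. When KO LPS+CCM replicates 2 and 5 were left out as well, a choice made after their values were seen, Soat1 was at 0.24 ± 0.0482 (edgeR adjusted p = 0.0269) and Abca1 at 0.30 ± 0.0834 (edgeR adjusted p = 0.0821).

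Among the other genes, the calls for CCM under LPS in WT cells stand beside 11.9% of all genes, 4.15% called higher and 7.78% lower. CCM passed the test for 3 of 10 other LXR targets, with Scd2 at 0.66, Arl4c at −0.36 and Mertk, a receptor for dying cells, at −0.21. It passed for 2 of 10 partners, among them Rxra at 0.29, and for 1 of 4 oxysterol genes, Ch25h at −0.81 ± 0.0860 (edgeR adjusted p = 2.22e-04). Of uptake and hydrolysis genes 3 of 10 rose, Lrp1 at 0.25, Lipa at 0.23 and the lysosomal cholesterol transporter gene Npc1 at 0.19. Of the SREBP2 targets 2 of 12 fell, Sc5d at −0.23 and Cyp51 at −0.22, and of the paralogs 3 of 9 passed, Abca3 at 0.26, Abca2 at 0.25 and Lpcat2 at −0.18. In KO cells with all 6 replicates none of these lists held a call by edgeR, against 0.112% of all genes, and Ch25h was at −0.81 ± 0.152 (edgeR adjusted p = 0.0662). Ch25h was called lower in KO cells without replicate 6, with the replicate block, and with both. The replicate numbers were not taken to pair the samples in that comparison (pair correlations −0.100 to 0.810), so the blocked calls are alternatives only. The genotype by CCM interaction of Ch25h was 0.02 ± 0.231.

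**Figure D4:**
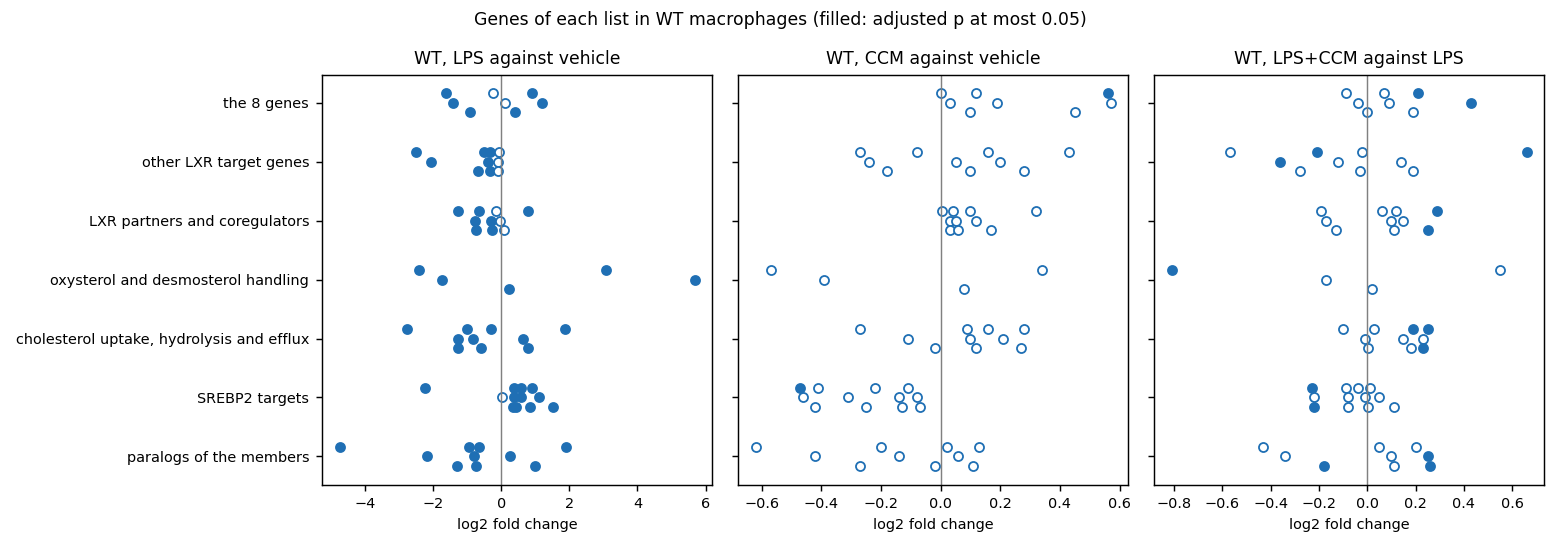
Log2 fold change (edgeR) of each tested gene in WT cells for the 8 genes and the 6 other lists, with 1 point per gene, filled where the adjusted p is at most 0.05, and a separate horizontal scale in each panel. LPS gives filled points on both sides of 0, CCM at rest leaves Abcg1 and Sqle filled, and CCM under LPS fills points from −0.81 for Ch25h to 0.66 for Scd2.

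Whether CCM acted differently with and without LPS was tested as an interaction in each genotype. In WT cells 0 members passed by edgeR, against 2.09% of all 14747 genes, with 1 member at an unadjusted p under 0.05, against 14.0%, and 1 by DESeq2, against 9.63%, in both cases Abcg1. Its interaction was −0.52 ± 0.147 (edgeR adjusted p = 0.0975), the CCM effect being 0.56 at rest and 0.07 under LPS, and it passed without WT LPS replicate 2 (−0.65, edgeR adjusted p = 0.0227). Mylip stood at −0.28 ± 0.236, Abca1 at −0.15 ± 0.155, Apoe at −0.15 ± 0.144, Lpcat3 at −0.11 ± 0.0992, Nr1h2 at −0.11 ± 0.0950, Nr1h3 at −0.05 ± 0.0734 and Soat1 at 0.07 ± 0.0675.

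For the WT interaction, where 2.09% of all genes passed, 4 of 10 other LXR targets did. Scd2 at 0.88 and Fasn at 0.44 were positive and Mertk at −0.65 and Arl4c at −0.54 negative. Scarb1 at 0.48 and Sqle at 0.45 also passed. In KO cells 0 members passed by edgeR, against 0.00685% of all 14588 genes, 0 had an unadjusted p under 0.05, against 3.67%, and 0 passed by DESeq2, against 0.0845%. Without KO replicate 6 edgeR again called 0, against 0.0685% of all genes. In the fit of all 6 replicates Abcg1 stood at −0.43 ± 0.310, Abca1 at −0.21 ± 0.541, Nr1h2 at −0.20 ± 0.161, Soat1 at 0.15 ± 0.159, Lpcat3 at −0.13 ± 0.161, Apoe at −0.04 ± 0.538, Mylip at −0.03 ± 0.427 and Nr1h3 at −0.01 ± 0.341. Without replicate 6 Abcg1 was at −0.51 ± 0.207 (edgeR adjusted p = 0.331) and Apoe at 0.10 ± 0.1998.

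Loss of BMAL1 was compared with WT in vehicle and under LPS, and no member passed in either. By edgeR 0% of all 14385 and of all 13794 genes passed, and 0 members had an unadjusted p under 0.05, against 0.820% of genes in vehicle and 0.761% under LPS. DESeq2 called 0 members, against 0.00370% and 0.00380%, and the groups overlapped for all 8, against 1.28% and 1.20% of genes without overlap. In vehicle Apoe was at 15369 to 21174 CPM in WT and ran from 17103 through 21227 to 54949 CPM in KO, a difference of 0.58 ± 0.399, and replicate 6 was the highest. Without it the Apoe range was 17103 to 22685 CPM and the difference 0.16 ± 0.116. Abca1 differed by 0.03 ± 0.430, Abcg1 by −0.07 ± 0.191, Nr1h2 by 0.02 ± 0.127, Nr1h3 by 0.06 ± 0.249, Mylip by −0.12 ± 0.292, Soat1 by −0.01 ± 0.124 and Lpcat3 by −0.06 ± 0.107. Without replicate 6, with 0% of all genes called, Nr1h3 turned to −0.18 ± 0.0590 (edgeR unadjusted p = 0.0114, adjusted p = 0.9999). Abca1 was then at 0.22 ± 0.152, Abcg1 at 0.02, Nr1h2 at −0.06, Mylip at 0.04, Soat1 at 0.03 and Lpcat3 at −0.02.

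Under LPS the KO differences were 0.46 ± 0.344 for Apoe, −0.40 ± 0.275 for Mylip, −0.24 ± 0.200 for Abcg1 and 0.15 ± 0.138 for Nr1h2. They were −0.07 ± 0.324 for Abca1, −0.05 ± 0.115 for Lpcat3, −0.03 ± 0.103 for Soat1 and 0.02 ± 0.154 for Nr1h3. Without replicate 6 they were 0.12 ± 0.108 for Apoe, −0.26 ± 0.173 for Mylip, −0.16 ± 0.151 for Abcg1 and 0.04 ± 0.0434 for Nr1h2, and 0.11 for Abca1, 0.01 for Lpcat3, 0.02 for Soat1 and −0.09 for Nr1h3, and again no member passed. With all 6 replicates the 95% intervals bound these values unevenly. That of Soat1 under LPS ran from −0.26 to 0.20, whereas that of Abca1 in vehicle ran from −0.93 to 0.99.

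The dependence of the LPS and CCM effects on genotype was tested in 18 libraries each. For LPS, 0 members passed by edgeR, against 0% of all 15093 genes, 0 had an unadjusted p under 0.05, against 0.742%, and 0 passed by DESeq2. Mylip stood at −0.28 ± 0.426, Abcg1 at −0.16 ± 0.290, Nr1h2 at 0.15 ± 0.190, Abca1 at −0.09 ± 0.569, Apoe at −0.08 ± 0.550, Lpcat3 at 0.03 ± 0.148, Nr1h3 at −0.02 ± 0.303 and Soat1 at −0.002 ± 0.159. Without replicate 6 no member passed, and Mylip was at −0.31, Abcg1 at −0.19, Abca1 at −0.13, Nr1h2 at 0.09, Nr1h3 at 0.08, Apoe at −0.06, Soat1 at −0.02 and Lpcat3 at 0.01. For CCM under LPS the counts were likewise 0 members by edgeR, against 0% of all 14546 genes, 0 at an unadjusted p under 0.05, against 0.495%, and 0 by DESeq2. Abca1 stood at −0.36 ± 0.480, Mylip at 0.20 ± 0.449, Nr1h3 at 0.17 ± 0.276, Apoe at 0.16 ± 0.487, Abcg1 at 0.04 ± 0.284, Soat1 at 0.03 ± 0.146, Nr1h2 at −0.03 ± 0.191 and Lpcat3 at −0.02 ± 0.164. Without replicate 6 no member passed, and Abca1 was at −0.38 ± 0.228, Apoe at 0.26, Mylip at 0.22, Nr1h3 at 0.11, Abcg1, Nr1h2 and Soat1 at 0.03 and Lpcat3 at −0.04. The Abca1 interval with all 6 replicates, −1.37 to 0.65, holds 0 and also values beyond the size of the WT effect, 0.43.

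Within a genotype the members followed a few patterns of level. In WT cells Abca1 was lowest in vehicle, then CCM, LPS and both agents, and none of the neighbouring groups overlapped. Abcg1, Mylip and Soat1 shared the order CCM, vehicle, both agents and LPS from high to low. The last step overlapped for Abcg1 and Mylip and not for Soat1. Nr1h3 was high in both LPS groups, which overlapped, and low in the other groups, which also overlapped. Apoe and Lpcat3 overlapped between all neighbouring groups.

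Across the 36 libraries the log2 CPM of Abcg1 correlated with that of Soat1 at Pearson's r = 0.97, with Mylip at 0.91 and with Nr1h3 at −0.92, and with Abca1 at −0.19. Without the 4 replicate 6 libraries the last value was −0.67. These points share treatments, genotype and replicate numbers, and the values are descriptions. Among 11178 genes the closest profile was Pag1 for Abca1 (r = 0.976), Abcc3 for Abcg1 (0.979), Grina for Nr1h2 (0.942), Psmd2 for Nr1h3 (0.985), Slc40a1 for Mylip (0.970), Ftl1 for Apoe (0.966), Galc for Soat1 (0.990) and G6pdx for Lpcat3 (0.888). Soat1 had 888 genes with r above 0.9 and Lpcat3 had 0. Without the replicate 6 libraries, r with the same closest genes was 0.730 for Lpcat3, 0.866 for Apoe and 0.936 for Abca1. For the other members it then ran from 0.940 for Nr1h2 to 0.994 for Soat1.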

How the data were processed

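Polyadenylated RNA from 36 macrophage libraries was sequenced in paired ends. According to the submitters' processing notes the authors used fastp, HISAT2 2.0.5 and featureCounts 1.5.0-p3 on mm10, and they deposited whole-number read counts per gene, not normalized, for 54532 genes (23675 of them at 0 throughout). Whether counting used strand was not given in the sources used here. Groups came from the labels. Counts were tested with edgeR 4.0.16 in R 4.3.3 (filterByExpr, TMM, quasi-likelihood F-test) on the libraries of each of 12 comparisons, with Benjamini-Hochberg adjustment over all genes passing the filter and a threshold of 0.05. CPM used TMM factors over all 36 libraries, and log2 CPM a prior count of 2. DESeq2 1.42.0, other scalings, no filter beyond 1 count, 1 fit of all libraries, a replicate block and leaving libraries out gave the alternatives.

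The 8 genes are the members, all named in every comparison. Up to 4 called genes with the largest absolute log2 fold change were named per other list and comparison, apart from some that are not reported here, and the closest profiles are the highest Pearson correlations among genes with a mean log2 CPM of at least 1. The members and lists were chosen with earlier results of these data known. Replicate numbers were taken to pair samples where same-numbered samples deviated together from their group means at a correlation above 0.1 in every pair. This held for LPS in KO (0.298 to 0.830), CCM in unstimulated KO (0.337 to 0.844) and CCM under LPS in WT (0.151 to 0.360), a hint from the data, since the labels do not say what the numbers mark. Differently numbered samples had a median correlation of 0.172, 0.221 and −0.132 in these comparisons. In KO that median was above 0.1 too, so the limit alone did not tell pairs from other samples there. No libraries of a group agreed within sampling noise (lowest chi-square per degree of freedom 4.08). The fits were tested on simulated data. Sequences and gene starts came from RefSeq (GRCm38.p6), and overlaps from GENCODE. Figures used matplotlib 3.10.9 under Python 3.11.15.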

Additional observations from a re-analysis of the deposited data

Results flagged for a closer look

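In 15 of the 32 sets of a member in 1 KO treatment group of 6, 1 library lay farther from the rest than Dixon's test allows at 95%, and all 15 were KO replicate 6. Chance alone flags about 1 in 20 such groups, and the sets share 4 libraries, so they are not independent. Abca1 was low in KO CCM (36.3 CPM against 168 to 190 in the other 5) and in KO LPS (69.3 against 225 to 270). Abcg1 was low in KO CCM (52.8 CPM against 131 to 169), and Mylip in KO vehicle (10.7 against 27.0 to 36.2) and KO CCM (13.7 against 40.3 to 47.9). Soat1 was low in KO LPS (126 CPM against 162 to 172), and Lpcat3 in KO vehicle (30.3 against 38.5 to 41.7) and KO CCM (28.6 against 44.0 to 51.1).

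Other members were high in the same replicate. Nr1h2 was at 178 CPM in KO LPS against 127 to 133. Nr1h3 was at 98.0 CPM in KO vehicle against 46.5 to 54.9, at 122 CPM in KO CCM against 51.7 to 59.7, and at 226 CPM in KO LPS+CCM against 118 to 148. Apoe was at 54949.2 CPM in KO vehicle against 17103 to 22685, at 64337.4 CPM in KO CCM against 19229.5 to 27165, and at 40134.5 CPM in KO LPS against 13360 to 19857. The summed neutrophil markers of replicate 6, 1112 to 1163 CPM, lay at the top of the range of the other KO libraries, 425 to 1158 CPM, and overlapped it. Its summed T cell markers, 2.70 to 3.83 CPM, lay above those of the other KO libraries, 0.164 to 1.61 CPM. The part of either in these values was not tested.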

How the results depend on the processing

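For LPS, Abcg1, Nr1h3 and Soat1 kept their direction and call in all 12 WT and 14 KO alternatives run, and Mylip its direction. The WT calls of Abca1 (adjusted p = 0.150) and Mylip (0.0659) were lost with all 36 libraries in 1 fit. Leaving out each replicate gave 6 to 7 members called for LPS in WT and 5 to 7 in KO, 0 to 2 for CCM at rest in WT and 0 to 3 in KO, 1 to 2 in WT given both agents rather than LPS, and 0 to 1 for the WT interaction. In KO, replicate 6 gave the 7 for LPS and the 3 for CCM at rest. DESeq2 called 2 members for CCM at rest in WT, against 2.41% of the genes it tested, and 1 for the WT interaction, against 9.63%. No filter beyond 1 count called 3 and 1, and 1 fit of all libraries called 0 for CCM at rest and 0 under LPS in WT, where the wider KO spread entered. The share of all genes is not given here for these last settings or for leaving out single replicates other than KO replicate 6. Their counts are therefore not read as results about the members. The replicate block called 3 for CCM at rest in WT, Abca1, Abcg1 and Mylip, where the numbers share only a number (lowest pair correlation 0.0511, each of 3 samples closest to its own number) and 1.82% of all genes passed. It called 3 in KO, against 3.11%, 4 in KO without replicate 6, against 5.24%, and 1 for the WT interaction, against 3.72%. For LPS in WT (0.0469 to 0.173) it added Apoe at −0.24 (adjusted p = 0.0388), and under LPS in KO (−0.100 to 0.810) it called none. It changed no other member call beyond those given with the results. Chosen after seeing the data, leaving out KO replicates 2 and 6 called 8 for LPS, and leaving out KO replicate 6 with LPS+CCM replicates 2 and 5 called 1 for CCM under LPS. The share of all genes in these fits is not given here either.

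The sign of 104 of 1448 member values changed, in 35 of 96 results, and 102 of these passed the threshold in neither fit. The others were those of LPS in WT with total counts alone, Nr1h2 at −0.01 and Lpcat3 at −0.30. That setting also gave, for LPS in KO, Lpcat3 −0.27, for CCM at rest in WT, Nr1h2 −0.00094, for CCM under LPS in WT, Nr1h3 0.08 and Apoe 0.04, for the WT interaction, Nr1h3 0.05, for the KO interaction, Nr1h3 0.03, Mylip 0.02 and Apoe 0.01, for KO against WT in vehicle, Nr1h2 −0.06 and Nr1h3 −0.05, under LPS, Nr1h3 −0.04, for genotype by LPS, Nr1h3 0.01 and Soat1 0.0034, and for genotype by CCM, Abcg1 −0.02 and Soat1 −0.03. No filter beyond 1 count gave, in the same order, Nr1h2 −0.00052, Nr1h3 0.0025, Nr1h3 0.0002 for the KO interaction, Nr1h2 −0.01, Nr1h3 −0.0023, and Nr1h3 0.01 and Soat1 0.02 for genotype by LPS. One fit of all libraries gave Nr1h2 −0.001 for KO against WT in vehicle. The block gave Apoe 0.04 for the KO interaction (0.10 without replicate 6), and Nr1h3 0.02 and Soat1 0.01 for genotype by LPS. Without KO replicates 2 and 6 the KO interaction was 0.04 for Nr1h3 and 0.02 for Apoe. KO against WT was then Abcg1 0.01, Nr1h2 −0.04, Nr1h3 −0.19, Mylip 0.03 and Soat1 0.01 in vehicle and Abca1 0.12, Nr1h3 −0.12, Soat1 0.02 and Lpcat3 0.0044 under LPS, and genotype by LPS was 0.05 for Nr1h3. With LPS+CCM replicates 2 and 5 and KO replicate 6 left out, the KO interaction was Abca1 0.01 and Mylip 0.08, and genotype by CCM was Nr1h2 0.01 and Lpcat3 0.01.

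Leaving out each replicate also crossed 0, in these ranges. For CCM at rest in WT they were −0.06 to 0.09 (Nr1h2), −0.00018 to 0.21 (Apoe) and −0.01 to 0.05 (Nr1h3). For CCM under LPS they were −0.07 to 0.20 (Abcg1), −0.03 to 0.02 (Nr1h3) and −0.09 to 0.05 (Apoe) in WT and −0.05 to 0.18 (Abca1) in KO. For the interactions of LPS and CCM they were −0.08 to 0.004 (Nr1h3) in WT, and −0.06 to 0.02 (Nr1h3), −0.13 to 0.10 (Apoe) and −0.10 to 0.03 (Mylip) in KO. For KO against WT in vehicle they were −0.11 to 0.22 (Abca1), −0.05 to 0.03 (Soat1), −0.16 to 0.02 (Abcg1), −0.06 to 0.11 (Nr1h2), −0.18 to 0.12 (Nr1h3) and −0.19 to 0.04 (Mylip), and under LPS −0.15 to 0.11 (Abca1), −0.09 to 0.08 (Nr1h3), −0.06 to 0.02 (Soat1) and −0.08 to 0.01 (Lpcat3). For genotype by LPS they were −0.05 to 0.08 (Nr1h3), −0.05 to 0.03 (Soat1), −0.25 to 0.03 (Abca1), −0.02 to 0.07 (Lpcat3) and −0.20 to 0.01 (Apoe), and for genotype by CCM −0.10 to 0.17 (Abcg1), −0.0044 to 0.06 (Soat1), −0.07 to 0.05 (Lpcat3), −0.10 to 0.03 (Nr1h2) and −0.05 to 0.39 (Mylip). The cause of these changes was not tested.

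With 3 WT libraries a group and the wide spread of the KO libraries, 0 calls do not show equal levels or effects.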
